A study of Mus musculus with 12 samples.

Results

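The cell cycle and DNA replication genes described here were 50 genes named by symbol, out of 23361 gene symbols in the expression tables of bone marrow-derived macrophages (BMDMs). Each member was matched to the row of its symbol, and all 50 had exactly 1 row, were annotated as protein-coding, and reached 1 FPKM (a fragment count corrected for transcript length and library size) in at least 1 sample. By role, 22 members act in or just before S phase, 22 act in G2 and mitosis, and 6 are the D-type cyclins and CDK inhibitors that set the pace of G1. *Ccna2*, which acts in S phase and mitosis, and *Mybl2*, itself an S-phase-regulated gene, were counted with the mitotic members. A level of 1 FPKM was reached in all 12 samples by 34 members and in only some samples by the other 16. Of those, 12 reached it in some groups only and so passed the filter on low values through the groups where they were high: *Cdc6*, *Pole*, *Cenpf* and *Mybl2* in control, *E2f2* and *Ccne2* in control and IL-4, *Ccnd2* in LPS and IL-4+LPS, and *Ccnb1*, *Bub1*, *Kif23*, *Cenpe* and *Foxm1* in all groups but IL-4+LPS. Their counts are therefore also given from a fit with no such filter.

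Cells that divide copy their DNA in S phase and separate the copies in mitosis. D-type cyclins with CDK4 or CDK6, and cyclin E with CDK2, inactivate the retinoblastoma proteins and release E2F transcription factors, which switch on the S-phase genes. Later, the MYB-MuvB complex and FOXM1 switch on the mitotic genes, and CDK inhibitors such as p21, p27 and p18 hold the kinases back. Macrophages grown from bone marrow divide in response to M-CSF until they mature, and inflammatory stimuli are known to stop that division.

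All cells were wild-type mouse BMDMs on a C57BL/6 background, taken from mice aged 8 to 12 weeks and differentiated for 6 days in medium with L929 supernatant, a source of M-CSF. The control group received neither agent, the IL-4 group received IL-4 at 20 ng/ml for 24 h, the LPS group received LPS at 100 ng/ml (the labels' unit, where the study's methods state a molar dose) for 3 h, and the IL-4+LPS group was pretreated with IL-4 before LPS was added at the same doses and times. IL-4, a type 2 cytokine, polarizes macrophages towards the alternative state through STAT6, while LPS comes from bacterial walls and signals through TLR4. Each group had 3 samples of poly-A RNA, and the comparison asks how pretreatment with IL-4 changes the response to LPS.

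Library sizes, read from the steps of the low FPKM values, ranged from about 11900000 to 39600000 fragments, and replicate 1 was the shallowest library of each group (11900000 to 12400000). Replicate 1 stood apart from replicates 2 and 3 in all 4 groups, with scores of 15.5 to 33.3 against -18.6 to -4.45 on the first component of the deviations from group means. Of the 22 S-phase members, 21 were lower in control replicate 1 than in either other control, and 18 of the 22 mitotic members were higher in replicate 1 than in either other sample of the group in IL-4 and again 18 in IL-4+LPS. The 3 members with the longest transcripts, *Cenpf* (11130 bases), *Mki67* (10061 bases) and *Cenpe* (7910 bases), were higher in replicate 1 than the mean of the other samples of the group in all 4 groups. Across 50 members the Spearman correlation between transcript length and the excess in replicate 1 was 0.42 in control and 0.14 to 0.24 in the other groups, a description over genes of the same libraries. Over 10452 expressed genes it was 0.24 in control and 0.18 to 0.26 in the other groups, so the trend is not particular to the members. All 8 macrophage markers were present, with a summed level of 19507 to 20945 FPKM in control, 7833 to 8051 FPKM in IL-4, 17472 to 18339 FPKM in LPS and 7515 to 7604 FPKM in IL-4+LPS. The sum mainly follows *Lyz2*, which ranged from 4183 to 16507 FPKM, against at most 1881 FPKM for *Cd68*, the next highest. *Lyz2* is among the genes the study describes as repressed by IL-4, so the sum is no measure of macrophage content. None of 5 stem and progenitor markers (*Kit*, *Cd34*, *Flt3*, *Gata2*, *Myb*) reached 1 FPKM in any sample, and none of 7 T, B and NK cell markers did. Of 5 erythroid markers 1 (*Epor*) and of 5 stromal markers 1 (*Pdgfrb*) did, and the summed stromal level was at most 0.249 FPKM in control and 2.26 to 3.55 FPKM in LPS. The summed neutrophil and granulocyte progenitor markers (8 of 9 in the tables) ranged from 377 to 974 FPKM in control, 236 to 452 in IL-4, 569 to 1171 in LPS and 471 to 945 in IL-4+LPS, and the part of these markers in the results was not tested. In such bulk RNA, fewer dividing cells and less RNA per dividing cell cannot be told apart.

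Promoters of 6 members are shown as examples of the letters upstream of S-phase and mitotic members. A link between these letters and the expression changes was not tested. The 150 bases before the RefSeq start site are given 5′ to 3′ on the gene's strand from the RefSeq promoter table (GRCm38.p6, the mm10 assembly). Capitals mark the words searched on both strands: E2F words TTTGGCGC, TTTGCCGC, TTTCGCGC and TTTCCCGC, cell cycle homology region (CHR) words TTTGAA and TTCGAA, and the CCAAT word. Overlapping words run together in capitals. *Mcm6* (chr1:128359706-128359855, minus strand) and *Pcna* (chr2:132253181-132253330, minus strand) are S-phase members. *Cdk1* (chr10:69352913-69353062, minus strand), *Top2a* (chr11:99024190-99024339, minus strand), *Ube2c* (chr2:164769779-164769928, plus strand) and *Mki67* (chr7:135716380-135716529, minus strand) are mitotic members.
Mcm6: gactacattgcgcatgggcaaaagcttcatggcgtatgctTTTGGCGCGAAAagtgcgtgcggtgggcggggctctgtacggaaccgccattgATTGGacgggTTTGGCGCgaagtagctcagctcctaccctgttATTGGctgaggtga
Pcna: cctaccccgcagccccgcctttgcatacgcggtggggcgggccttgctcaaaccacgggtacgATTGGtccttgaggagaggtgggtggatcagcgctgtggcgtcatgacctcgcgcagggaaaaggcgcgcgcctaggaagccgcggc
Cdk1: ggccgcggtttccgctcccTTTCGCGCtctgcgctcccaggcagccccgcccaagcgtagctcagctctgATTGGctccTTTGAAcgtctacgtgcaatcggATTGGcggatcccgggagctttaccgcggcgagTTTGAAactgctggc
Top2a: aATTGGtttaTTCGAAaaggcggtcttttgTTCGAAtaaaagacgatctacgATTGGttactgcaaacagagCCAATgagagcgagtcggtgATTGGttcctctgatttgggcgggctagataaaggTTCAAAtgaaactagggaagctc
Ube2c: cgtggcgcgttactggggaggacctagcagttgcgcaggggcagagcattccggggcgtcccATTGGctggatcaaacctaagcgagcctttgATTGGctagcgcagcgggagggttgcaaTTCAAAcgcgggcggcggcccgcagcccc
Mki67: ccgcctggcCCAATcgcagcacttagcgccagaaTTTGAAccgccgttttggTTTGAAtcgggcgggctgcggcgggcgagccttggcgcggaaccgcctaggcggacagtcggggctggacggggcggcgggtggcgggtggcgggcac

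In the full promoter window of 250 bases before and 50 after the start, an E2F word stood in the promoters of 9 of 18 S-phase members with a RefSeq promoter and in 1 of 17 mitotic members (*Cdk1*), against 2.26% of all 32851 mouse promoters. A CHR word stood in 4 of 18 S-phase and 13 of 17 mitotic members, against 19.2% of all promoters. The CCAAT word stood in 12 of 18 S-phase and 15 of 17 mitotic members, against 37.4% of all promoters. None of the 4 D-type cyclins and CDK inhibitors with a promoter in the table (*Ccnd3*, *Cdkn1a*, *Cdkn1b*, *Cdkn2c*) held an E2F or CHR word. The matches are a description of letters, and 11 members had no promoter in the table.

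**Figure D1:**
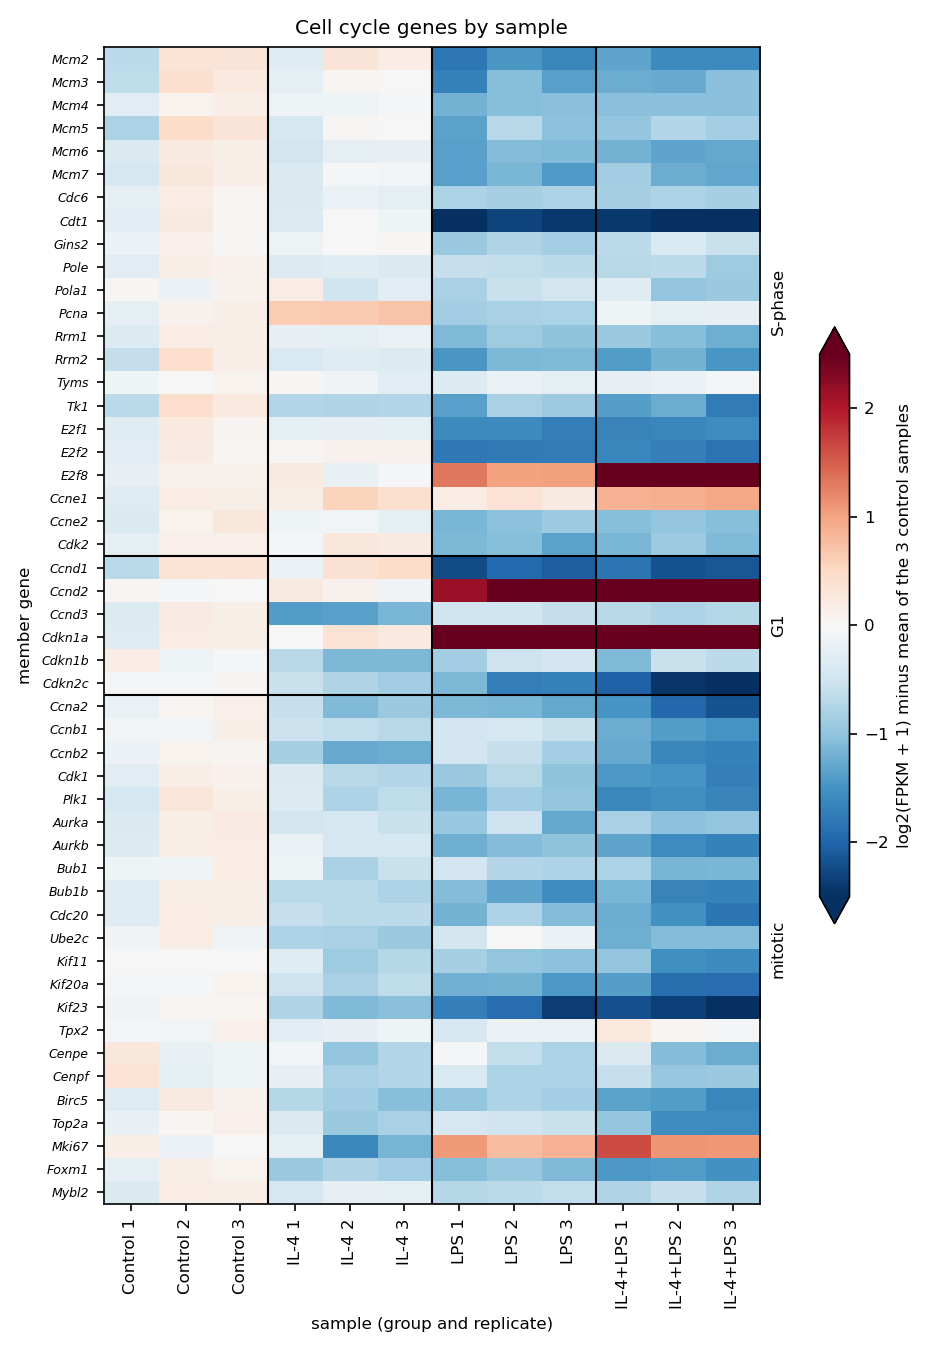
Heat map of the 50 members (rows, grouped as S-phase, G1 and mitotic) in the 12 samples (columns), coloured by log2(FPKM + 1) minus the mean of the 3 control samples, with colours saturating at 2.5 in either direction. Most rows turn blue in the 6 LPS-treated columns, while E2f8, Ccnd2, Cdkn1a and Mki67 turn red there, and the mitotic rows are bluer than the S-phase rows in the IL-4 columns.

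After 3 h of LPS, most cell cycle genes were lower than in untreated BMDMs: 42 of 50 members fell and 4 rose (limma on log2(FPKM + 1), Benjamini-Hochberg over 11191 expressed rows, adjusted p under 0.05). Over all expressed rows 57.7% were called lower and 16.9% higher, and the median row itself moved by -0.44 on the log2 scale, so the members are read against that shift. With no filter on low values the members' counts were again 42 and 4. The S-phase members had a median log2 fold change of -1.02 and the mitotic members one of -0.87, and 19 of 22 in each set lay below the median of all rows. Scaling each sample to a common median of expressed rows moved the all-row median to -0.14 and split the calls over all rows into 2966 higher and 4454 lower, in place of 1887 and 6462. The members then split into 5 higher and 34 lower, and under quantile normalization into 6 higher and 26 lower (25.9% and 38.7% of all rows).

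All 12 members of the replication machinery were lower in LPS. *Cdt1*, the licensing factor that loads the MCM helicase onto origins, measured 10.9, 15.8 and 13.8 FPKM in control and 1.30, 1.86 and 1.70 FPKM in LPS, an 8.32-fold lower mean (log2 fold change -2.46 ± 0.14 SE, adjusted p = 1.4e-07). The *Cdt1* groups were far apart in every sample. *Mcm6*, a subunit of the replicative helicase whose promoter carries the overlapping E2F words shown above, went from 20.7, 31.5 and 29.8 FPKM to 9.86, 12.2 and 12.0 FPKM (log2 fold change -1.18, adjusted p = 3.2e-05). *Cdc6*, the partner of *Cdt1* in licensing, was at 0.576, 1.12 and 0.915 FPKM in control and at 0.0744, 0.0442 and 0.0940 FPKM in LPS. All LPS values of *Mcm6* and *Cdc6* lay under all control values. The other helicase subunits *Mcm2*, *Mcm3*, *Mcm4*, *Mcm5* and *Mcm7* changed by -1.63, -1.37, -1.09, -1.02 and -1.31 on the log2 scale, and among the 12 only *Mcm5* overlapped between groups, through control replicate 1 (6.51 FPKM against 4.08 to 6.96 FPKM in LPS). The share of all rows without such overlap was not counted. Throughout, a lack of overlap describes single genes only and sets no member apart from other rows. Under median scaling the calls of *Mcm5* (-0.69, adjusted p = 0.053) and *Pola1*, the catalytic subunit of DNA polymerase alpha (-0.39, adjusted p = 0.13), were lost. *Pcna*, the sliding clamp, which had the highest control level of all members, measured 231, 294 and 304 FPKM in control and 150.3, 156 and 158 FPKM in LPS, a fall of the same order (log2 fold change -0.82). For *Pcna*, 31.8% of the 50-base words of its longest transcript also occur in other genes, chiefly the pseudogene *Pcna-ps2*, so its level is less certain.

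All 4 genes of nucleotide supply were called lower in LPS. *Rrm2*, the small subunit of ribonucleotide reductase, measured 5.97, 13.0 and 10.8 FPKM in control against 2.81, 3.84 and 3.88 FPKM in LPS (log2 fold change -1.23 ± 0.22, adjusted p = 0.0004). *Tk1*, thymidine kinase (not called under quantile normalization, adjusted p = 0.074), and *Rrm1*, the large subunit of the reductase, fell as well (log2 fold change of *Tk1* -1.02, adjusted p = 0.0046 and 6.2e-05). *Tyms*, thymidylate synthase, was barely past the threshold (log2 fold change -0.25, adjusted p = 0.049), a smaller shift than that of the median row, and its call was lost in 9 of 12 fits that left out 1 sample and turned to 0.31 under quantile normalization. Among the G1/S regulators, *E2f2*, an activator E2F, was close to 0 after LPS: 2.46, 3.76 and 3.26 FPKM in control against 0.195, 0.204 and 0.231 FPKM in LPS, a 15.0-fold lower mean (log2 fold change -1.77). *E2f2* passed the filter only through control and IL-4, so no p-value of the filtered fit is given for its LPS change. With no filter on low values 20 S-phase members were called lower in LPS. *E2f1* fell from 11.6, 17.3 and 15.2 FPKM to 4.14, 4.16 and 3.76 FPKM, with no overlap. *Cdk2*, the kinase partner of cyclin E, and *Ccne2*, a cyclin E, also fell (log2 fold changes -1.17 and -1.03), while *Ccne1*, the other cyclin E, was at 1.57, 2.66 and 2.58 FPKM in control and 2.67, 3.13 and 2.75 FPKM in LPS and did not pass the test (adjusted p = 0.13).

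*E2f8*, an atypical E2F that represses E2F targets, was the only S-phase member called higher in LPS in this fit. Under median scaling 2 S-phase members were called higher, and under quantile normalization 3 were, among them *Tyms* (0.31). *E2f8* measured 1.86, 2.55 and 2.54 FPKM in control and 7.23, 5.65 and 5.75 FPKM in LPS, a 2.68-fold higher mean (log2 fold change 1.12 ± 0.15, adjusted p = 5.7e-05). Every LPS sample was above every control sample, with or without replicate 1. Of its longest transcript, 10.5% of the 50-base words are shared with the overlapping gene *Gm2788*, which was not analysed here. *E2f8* lies on chromosome 7 from 48866429 to 48881041 on the minus strand of mm10.

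Of the 22 mitotic members, 18 fell in LPS and 1 rose, where 57.7% of all rows fell and 16.9% rose. Under median scaling 15 mitotic members fell, where 39.8% of all rows fell. Under quantile normalization 9 mitotic members fell, a number near the 38.7% of all rows, while 15 of 22 S-phase members fell. *Kif23*, a kinesin of the central spindle needed for cytokinesis, measured 6.32, 7.09 and 7.08 FPKM in control and 1.40, 1.10 and 0.505 FPKM in LPS (log2 fold change -1.99 ± 0.17, adjusted p = 1.9e-06), a 6.82-fold lower mean with no overlap. *Bub1b*, the checkpoint kinase BubR1, went from 4.53, 6.76 and 6.58 FPKM to 2.23, 1.74 and 1.36 FPKM (log2 fold change -1.32, adjusted p = 6.1e-05). *Ccna2*, cyclin A2, was at 9.42, 11.2 and 11.8 FPKM in control and 4.43, 4.31 and 3.85 FPKM in LPS (log2 fold change -1.18). Both were lower in every LPS sample than in any control. *Foxm1*, the forkhead factor that activates mitotic genes, measured 3.02, 4.35 and 4.09 FPKM against 1.30, 1.46 and 1.23 FPKM (log2 fold change -1.04), and *Kif20a*, *Aurkb*, *Plk1* and *Cdc20* fell by 1.28, 1.10, 1.01 and 1.01 on the log2 scale.

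Other mitotic members changed less in LPS. *Ube2c*, the ubiquitin-conjugating enzyme of the anaphase-promoting complex, was at 13.9, 17.2 and 13.9 FPKM in control and 10.6, 14.9 and 13.2 FPKM in LPS, with overlapping groups (adjusted p = 0.14). *Tpx2*, a spindle assembly factor, and *Cenpe*, a kinetochore motor, did not pass the test either (adjusted p = 0.053 and 0.17). *Top2a* fell by 0.49 and *Ccnb1*, cyclin B1, by 0.50 on the log2 scale, both close to the shift of the median row. For *Ccnb1* the change was -0.22 under median scaling (adjusted p = 0.056) and 0.09 under quantile normalization, and 42.1% of its 50-base words occur in other genes, chiefly *Ccnb1-ps*. For *Top2a* the call was lost under median scaling (-0.15, adjusted p = 0.46) and in 4 of 12 fits that left out 1 sample, those without control replicate 2 or 3 or LPS replicate 2 or 3.

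*Mki67*, which encodes the proliferation antigen Ki-67 that coats mitotic chromosomes, went the other way. It measured 8.93, 6.98 and 7.87 FPKM in control and 17.6, 14.1 and 15.2 FPKM in LPS, a 1.98-fold higher mean (log2 fold change 0.90 ± 0.29, adjusted p = 0.015). The lowest LPS sample was above the highest control sample, and replicates 2 and 3 alone gave 0.90 (adjusted p = 0.0011). Without control replicate 2 the adjusted p was 0.051, with a change of 0.82. Its promoter holds 2 CHR words and 3 CCAAT words in the full window. *Mki67* lies on chromosome 7 from 135689788 to 135716379 on the minus strand.

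**Figure D2:**
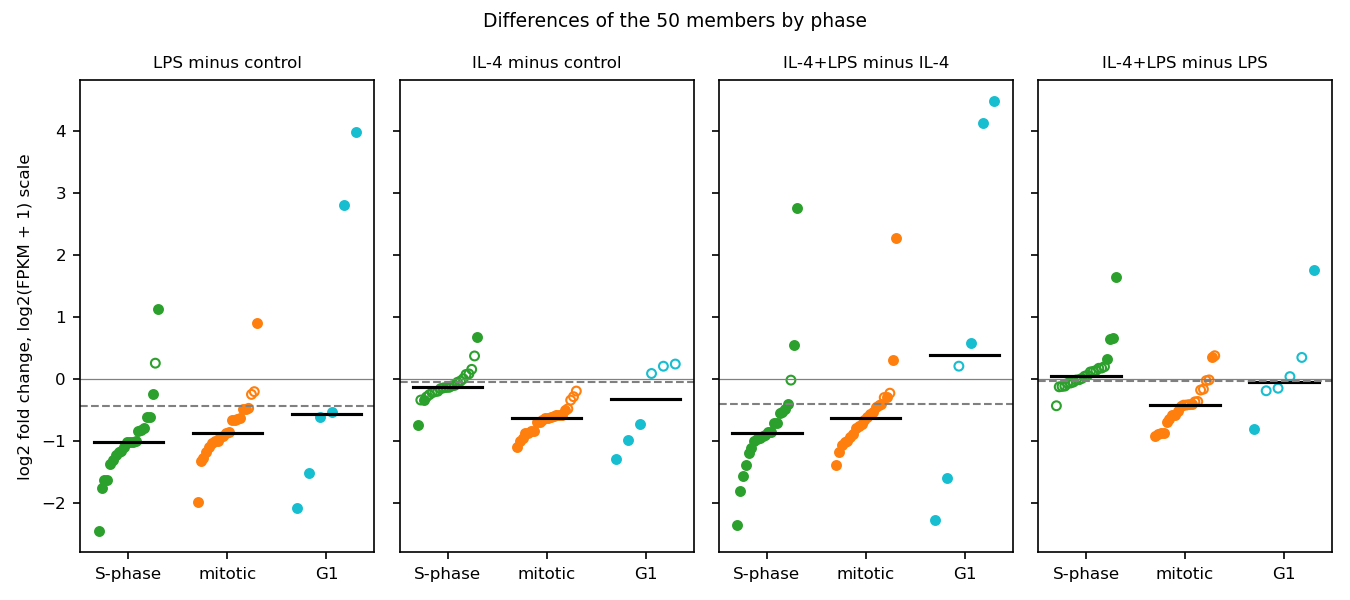
Log2 fold changes on the log2(FPKM + 1) scale of the 22 S-phase, 22 mitotic and 6 G1 members in 4 comparisons, 1 point per gene, filled where the gene passed adjusted p under 0.05 in limma. Black bars are the set medians and the dashed line is the median of all 11191 expressed rows. In LPS minus control both sets sit below the dashed line (medians -1.02 and -0.87), whereas in IL-4 minus control the mitotic median is -0.63 and the S-phase median -0.14.

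IL-4 alone for 24 h gave a different picture, in which the mitotic genes were lower and the S-phase genes were closer to control. Of the 50 members 22 fell and 1 rose, where 21.0% of all rows fell and 16.0% rose. The fallers were 17 of 22 mitotic members (median log2 fold change -0.63), 2 of 22 S-phase members (median -0.14) and 3 of the 6 G1 genes, and the median of all rows was -0.05. With replicates 2 and 3 only, 36 members fell and 2 rose, the fallers being 21 mitotic and 12 S-phase members (medians -0.84 and -0.29) and 3 G1 genes, but calls over all rows also grew in that fit, to 29.4% lower and 21.5% higher. With no filter on low values 19 members fell, among them 15 mitotic members and 1 S-phase member, and 1 rose. Leaving out 1 sample at a time gave 13 to 29 fallers, with 13 without IL-4 replicate 2 and 14 without IL-4 replicate 3. Without control replicate 1, 9 S-phase members (median -0.30) and 17 mitotic members (median -0.76) fell, where 18.6% of all rows fell. The number of S-phase falls thus depends on that control sample. The mitotic median was below the S-phase median in all 21 fits run (this one and 20 alternatives), at -0.84 to -0.55 against -0.30 to -0.05, while the number of S-phase members that fell ran from 0 to 12. Fits with no filter, a replicate block or only the compared groups leave both medians unchanged by construction. So do fits without an LPS or IL-4+LPS sample, and none of these adds support.

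All 3 mitotic cyclins fell after IL-4. *Ccnb2*, cyclin B2, measured 11.4, 13.6 and 13.3 FPKM in control and 6.76, 4.76 and 4.82 FPKM in IL-4 (log2 fold change -1.11 ± 0.16, adjusted p = 0.00037). *Ccnb1* was at 3.46, 3.48 and 4.23 FPKM against 2.26, 2.08 and 1.90 FPKM (log2 fold change -0.61), and *Ccna2* at 6.85, 4.49 and 5.19 FPKM after IL-4 (log2 fold change -0.87). All IL-4 values of these 3 cyclins were below all control values. Their kinase *Cdk1* went from 8.95, 12.6 and 11.9 FPKM to 8.38, 6.43 and 6.29 FPKM (log2 fold change -0.59, adjusted p = 0.01), and again the groups were apart. *Plk1*, polo-like kinase, fell by 0.58 on the log2 scale with 1 overlapping sample each way and lost its call in 4 fits that left out 1 sample (without control replicate 2 or 3 or IL-4 replicate 2 or 3). *Aurka* and *Aurkb*, the Aurora kinases, were not called (log2 fold changes -0.49 and -0.34, adjusted p = 0.069 and 0.11).

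All 4 checkpoint and anaphase-promoting complex genes fell after IL-4. *Ube2c*, which LPS left near control, measured 13.9, 17.2 and 13.9 FPKM in control and 8.40, 8.09 and 7.34 FPKM in IL-4, a 1.89-fold lower mean (log2 fold change -0.84 ± 0.12, adjusted p = 0.0004). *Bub1b* was at 3.33, 3.29 and 3.03 FPKM and *Cdc20*, the activator of that complex, at 3.55, 3.20 and 3.29 FPKM after IL-4, each below all controls, though *Cdc20* lost its call without control replicate 2 or 3 or IL-4 replicate 2 or 3. *Bub1*, a checkpoint kinase, was at the threshold (adjusted p = 0.0498) and lost its call in 10 of 12 fits that left out 1 sample. Of 9 spindle, kinetochore and chromosome genes 7 fell, led by *Mki67* and *Kif23*. *Kif23* measured 3.66, 2.64 and 2.80 FPKM after IL-4 (log2 fold change -0.96, adjusted p = 0.0014), below every control. *Mki67* measured 6.47, 1.90 and 2.99 FPKM, and IL-4 replicate 1 was close to the controls while replicates 2 and 3 were far below (log2 fold change -1.01 ± 0.29, adjusted p = 0.02, lost without control replicate 1 or 3 or IL-4 replicate 2 or 3). *Top2a*, topoisomerase II alpha, was at 11.7, 14.1 and 14.8 FPKM in control and 10.2, 6.65 and 7.30 FPKM in IL-4 (log2 fold change -0.70), and *Birc5*, survivin, fell by 0.88. *Foxm1* went from 3.02, 4.35 and 4.09 FPKM to 1.53, 1.86 and 1.66 FPKM with no overlap (log2 fold change -0.84 ± 0.11, adjusted p = 0.00023), whereas *Mybl2*, B-Myb, did not pass the test (adjusted p = 0.14).

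Of the S-phase members only *Pcna* was called higher after IL-4 in this fit (2 were under quantile normalization), and it was higher in every sample. It measured 425, 433 and 451 FPKM after IL-4 against 231, 294 and 304 FPKM in control, a 1.58-fold higher mean (log2 fold change 0.67 ± 0.09, adjusted p = 0.00037), and kept its call in all 12 fits that left out 1 sample. The S-phase members that fell were *Tk1* and *Pole*, the catalytic subunit of DNA polymerase epsilon. *Tk1* measured 6.06, 5.98 and 6.11 FPKM in IL-4 against 6.38, 15.0 and 12.9 FPKM in control (log2 fold change -0.74, adjusted p = 0.046), and *Pole* 0.785, 0.845 and 0.759 FPKM against 0.876, 1.56 and 1.44 FPKM (log2 fold change -0.34). *Pole* passed the filter only through control, and with no filter 1 S-phase member was called lower. The *Tk1* and *Pole* calls were lost in 10 and 9 of 12 fits that left out 1 sample. The 6 MCM genes had log2 fold changes of -0.29 to 0.07, and their IL-4 values overlapped those of the controls. For *Mcm3*, *Mcm4*, *Mcm5*, *Mcm6* and *Mcm7* the overlap came only through control replicate 1. All their IL-4 values lay below control replicates 2 and 3 (for *Mcm6* at most 23.4 FPKM against 31.5 and 29.8 FPKM). *Cdt1* was at 10.3, 13.5 and 12.3 FPKM after IL-4, and *E2f2* at 3.19, 3.46 and 3.42 FPKM (adjusted p = 0.46 and 0.62).

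A contrast within each sample depends little on how samples are scaled to each other, so the median of the 22 mitotic members was set against that of the 22 S-phase members, both relative to the control means. The mitotic minus S-phase difference was 0.12, -0.11 and -0.03 in control and -0.23, -0.73 and -0.64 in IL-4 (log2). All IL-4 samples were below all controls, with replicate 1 closest to them. The difference was 0.28, 0.20 and 0.09 in LPS and -0.22, -0.43 and -0.52 in IL-4+LPS, so both IL-4-treated groups were on the negative side and LPS alone was not. The members were divided by role and no test was made on these medians.

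**Figure D3:**
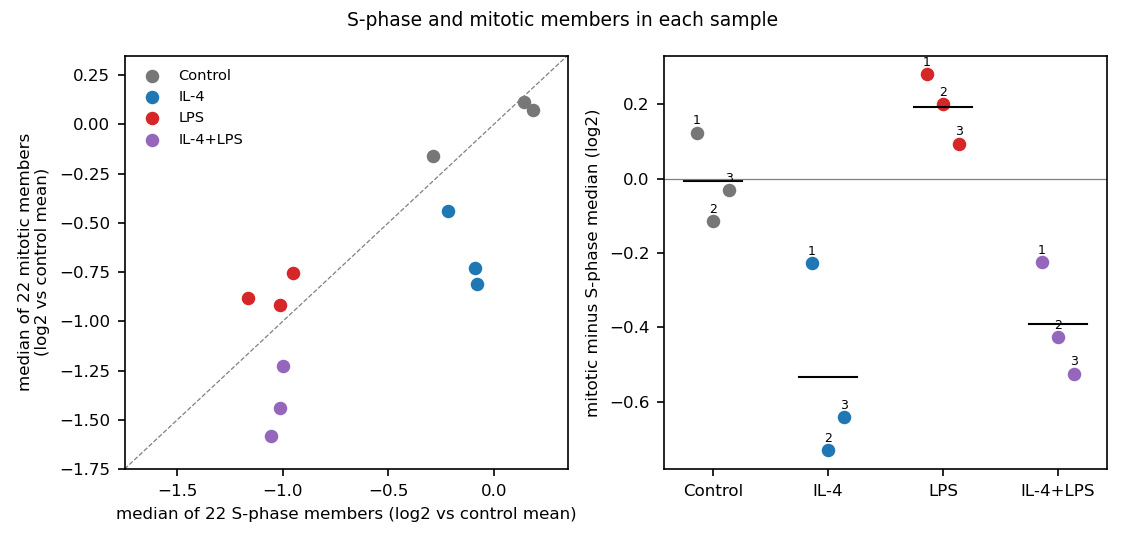
Left, median of the 22 mitotic members against median of the 22 S-phase members in each of the 12 samples, as log2(FPKM + 1) relative to the control mean, with the dashed line marking equal values. Right, the difference of both medians per sample (points numbered by replicate, bars at group means), which is -0.73 to -0.23 in IL-4 and -0.52 to -0.22 in IL-4+LPS, against -0.11 to 0.12 in control and 0.09 to 0.28 in LPS.

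The D-type cyclins, which carry the mitogen signal into the cycle, each followed a course of their own. *Ccnd1* (chromosome 7, 144929931 to 144939925, minus strand) measured 17.4, 36.5 and 36.6 FPKM in control, 25.9, 37.8 and 39.8 FPKM in IL-4, 5.25, 6.69 and 6.11 FPKM in LPS and 7.31, 5.56 and 5.75 FPKM in IL-4+LPS. It was 5.01-fold lower in LPS (log2 fold change -2.08 ± 0.26, adjusted p = 3.4e-05) and similarly low after both agents (-2.29 against IL-4), with no overlap between samples with and without LPS. Its IL-4 change did not pass the test (adjusted p = 0.51). *Ccnd2* (chromosome 6, 127125709 to 127151048, minus strand) was nearly silent without LPS and rose with it: 0.164, 0.0895 and 0.113 FPKM in control, 0.316, 0.210 and 0.0601 FPKM in IL-4, 3.98, 8.89 and 8.77 FPKM in LPS and 14.3, 32.8 and 35.3 FPKM in IL-4+LPS. The mean was 59.0-fold higher in LPS than in control (log2 fold change 2.80 ± 0.33 on the log2(FPKM + 1) scale, which understates a gene this low). Since *Ccnd2* passed the filter only through the LPS groups, its test is taken from the fit with no filter (adjusted p = 6.7e-05). The mean was 3.81-fold higher again in IL-4+LPS than in LPS (log2 fold change 1.76 ± 0.33, adjusted p = 0.0024). Every IL-4+LPS sample was above every LPS sample, and replicate 1 was the lowest of both groups. *Ccnd3* (chromosome 17, 47505051 to 47599688, plus strand) fell most with IL-4 alone, at 14.6, 22 and 20.8 FPKM in control, 6.50, 6.75 and 8.04 FPKM in IL-4, 13.0, 13.1 and 12.2 FPKM in LPS and 11.3, 10.6 and 11.2 FPKM in IL-4+LPS. Its IL-4 change was -1.30 ± 0.13 (adjusted p = 4.1e-05) and its LPS change -0.53 ± 0.13 (adjusted p = 0.0042), while LPS after IL-4 raised it by 0.58 (adjusted p = 0.0027). Under median scaling and quantile normalization the LPS change of *Ccnd3* without IL-4 did not pass (-0.18 and -0.28, adjusted p = 0.21 and 0.096). The exons of *Ccnd3* overlap those of *Bysl*, which stayed at 2.33 to 5.87 FPKM in all samples.

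*Cdkn1a*, which encodes p21, was the only CDK inhibitor of the 3 that rose in LPS. It measured 83.0, 119 and 115 FPKM in control, 105, 134 and 124 FPKM in IL-4, 1428, 1767 and 1840.1 FPKM in LPS and 1642, 2342 and 2476 FPKM in IL-4+LPS. LPS raised the mean 15.9-fold (log2 fold change 3.99 ± 0.19, adjusted p = 3.1e-08), and the difference with IL-4 pretreatment did not pass the test (IL-4+LPS against LPS 0.35, adjusted p = 0.19). *Cdkn1a* lies on chromosome 17 from 29090986 to 29100722 on the plus strand. *Cdkn1b*, which encodes p27, was highest in control at 19.7, 15.6 and 16.6 FPKM, and lower at 10.3, 7.40 and 7.33 FPKM in IL-4, 9.0, 11.7 and 12.1 FPKM in LPS and 7.47, 11.4 and 10.5 FPKM in IL-4+LPS (log2 fold changes against control -0.98, -0.62 and -0.78, each past the test). The treated groups of *Cdkn1b* overlapped each other, and its LPS change was lost under both other scalings (-0.28 and -0.36, adjusted p = 0.22 and 0.12), as was that of IL-4+LPS under median scaling (-0.42, adjusted p = 0.074). *Cdkn2c*, which encodes the CDK4/6 inhibitor p18, stepped down with each agent: 14.6, 14.7 and 15.8 FPKM in control, 9.93, 8.50 and 7.77 FPKM in IL-4, 6.34, 3.81 and 3.99 FPKM in LPS and 2.98, 1.96 and 1.73 FPKM in IL-4+LPS. No *Cdkn2c* group overlapped another, and all 4 single steps passed the test (IL-4 -0.73, LPS -1.52, LPS after IL-4 -1.61, IL-4+LPS against LPS -0.82).

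**Figure D4:**
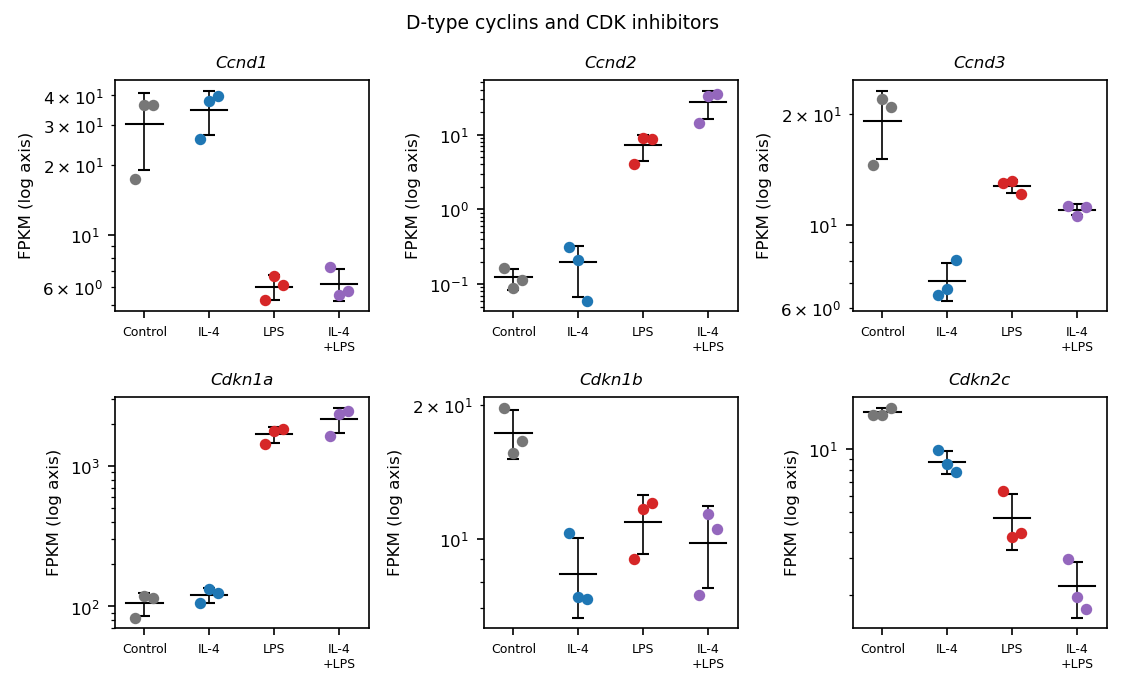
FPKM of the 3 D-type cyclins and 3 CDK inhibitors in each of the 12 samples, on log axes that differ between panels, with bars at the mean and the SD of 3 samples. Ccnd1 and Ccnd2 move in opposite directions with LPS, Ccnd3 is lowest in the IL-4 group, Cdkn1a is at 1428 FPKM or more in all 6 LPS-treated samples and at 134 FPKM or less elsewhere, and Cdkn2c is lower with each added agent.

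After IL-4 pretreatment LPS again lowered most members. In IL-4+LPS against IL-4, 39 members fell and 7 rose, where 57.9% of all rows fell and 15.0% rose (median of all rows -0.41). The fallers were 19 S-phase members (median -0.88), 18 mitotic members (median -0.64) and 2 G1 genes. Under quantile normalization 22 members fell and 9 rose, where 37.3% of all rows fell and 22% rose. In that fit 13 of 22 S-phase and 7 of 22 mitotic members fell, so the mitotic falls did not exceed the share of all rows. Under median scaling, which put the median of all rows at -0.12, 28 fell and 8 rose, where 36.3% of all rows fell and 23.5% rose. With no filter on low values 34 fell and 7 rose. *Cdt1*, at 10.3, 13.5 and 12.3 FPKM in IL-4 and 1.69, 1.55 and 1.31 FPKM in IL-4+LPS, and *E2f2*, at 0.333, 0.261 and 0.149 FPKM in IL-4+LPS, were again among the largest falls (log2 fold changes -2.36 and -1.81). The risers were *E2f8*, *Ccne1*, *Ccnd2*, *Ccnd3*, *Cdkn1a*, *Tpx2* and *Mki67*. *Mki67* reached 26.6, 18.1 and 17.8 FPKM from 6.47, 1.90 and 2.99 FPKM, a 5.50-fold higher mean (log2 fold change 2.28 ± 0.29, adjusted p = 4.2e-05), with no overlap. Of the mitotic falls, that of *Ube2c* (-0.29) changed sign under median scaling (0.03) and quantile normalization (0.12), and those of *Ccnb2* and *Aurka* changed sign under quantile normalization (0.04 and 0.05).

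The direct effect of pretreatment, IL-4+LPS against LPS, again separated the phases. Here 12 members fell and 6 rose, where 15.8% of all rows fell and 15.0% rose. The fallers were 11 of 22 mitotic members (median of the set -0.43) and *Cdkn2c*, so no S-phase member was among them (median of the 22 0.05, limma, 0 lower at an unadjusted p under 0.05). For the unadjusted count no share of all rows was computed. The risers were 4 S-phase members (*Gins2*, *Pcna*, *E2f8* and *Ccne1*), *Ccnd2* and *Tpx2*. With replicates 2 and 3 only, 19 fell and 6 rose, and the fallers included 15 mitotic and 3 S-phase members, where 25.9% of all rows fell and 21.0% rose in that fit. With no filter on low values 9 fell, 8 of them mitotic, and 6 rose. Without IL-4+LPS replicate 3 only 6 members fell. The mitotic median was below the S-phase median in all 21 fits, at -0.76 to -0.35 against -0.00081 to 0.10. Several of these fits again leave both medians unchanged by construction, among them those without a control or IL-4 sample.

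*Ccnb1* measured 2.36, 2.46 and 2.20 FPKM in LPS and 0.993, 0.777 and 0.678 FPKM in IL-4+LPS (a log2 change of -0.88 ± 0.10), a 2.87-fold lower mean. It did not reach 1 FPKM in IL-4+LPS, so no p-value of the filtered fit is given for this comparison. *Ccnb2* went from 8.80, 8.18 and 6.64 FPKM to 4.77, 3.43 and 3.24 FPKM (log2 fold change -0.89), *Ube2c* from 10.6, 14.9 and 13.2 FPKM to 5.88, 6.49 and 6.54 FPKM (-0.92) and *Top2a* from 9.83, 9.21 and 8.84 FPKM to 6.41, 3.94 and 3.87 FPKM (-0.87). In these 4 genes every IL-4+LPS sample was below every LPS sample. *Ccna2*, *Cdk1*, *Plk1* and *Birc5* fell by 0.70, 0.66, 0.59 and 0.59 on the log2 scale, of which *Ccna2* and *Birc5* lost their calls without IL-4+LPS replicate 3 and *Plk1* in 5 of 12 fits that left out 1 sample. By contrast *Pcna* was 1.56-fold higher in IL-4+LPS, at 253, 232 and 238 FPKM against 150.3, 156 and 158 FPKM (log2 fold change 0.64 ± 0.09, adjusted p = 0.00055). The MCM genes stayed between -0.07 and 0.20 on the log2 scale, none past the test. *Ccne1* was at 2.67, 3.13 and 2.75 FPKM in LPS and 4.88, 5.09 and 5.29 FPKM in IL-4+LPS (a log2 change of 0.66 ± 0.14, adjusted p = 0.0055), with no overlap.

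Against untreated cells, IL-4+LPS had 42 members lower and 5 higher, where 56.4% of all rows were lower and 17.9% higher (median of all rows -0.43). With no filter on low values the counts were again 42 and 5. The mitotic median was -1.41 and the S-phase median -1.05 in this comparison, which shares its controls with those above. *Kif23* ended at 0.703, 0.550 and 0.340 FPKM (log2 fold change -2.36), *Ccna2* at 3.21, 2.0 and 1.60 FPKM (-1.88) and *Foxm1* at 0.766, 0.805 and 0.679 FPKM (-1.45). Each was below every control sample. The 5 members above control were *E2f8*, *Ccne1*, *Ccnd2*, *Cdkn1a* and *Mki67*.

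**Figure D5:**
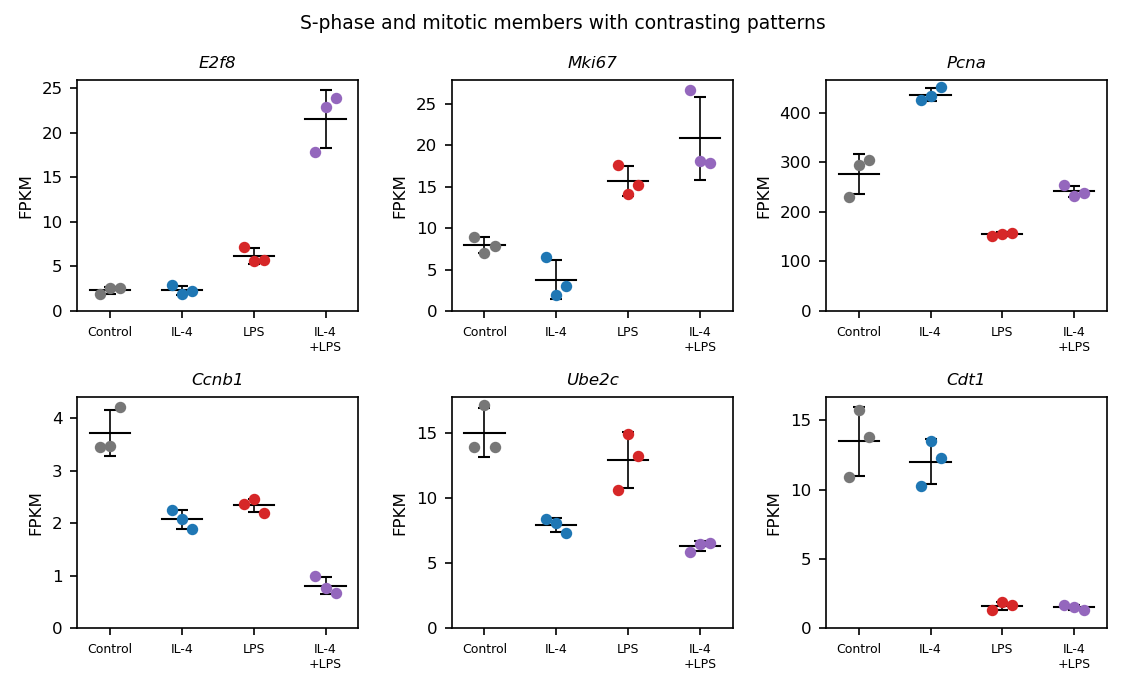
FPKM of 6 S-phase and mitotic members in each of the 12 samples on linear axes from 0, with bars at the mean and the SD of 3 samples. E2f8 is highest in IL-4+LPS, Mki67 is low in IL-4 replicates 2 and 3 and high in LPS and IL-4+LPS, Pcna is highest in IL-4, Ccnb1 and Ube2c are lower in both IL-4-treated groups than in their counterparts, and Cdt1 is low wherever LPS was given.

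Whether LPS acted differently after IL-4 was tested gene by gene as an interaction, the LPS change after IL-4 minus the LPS change without it. Of 50 members 3 passed on the higher side and 0 on the lower side (limma), where 4.58% and 4.63% of all rows passed. With no filter on low values 2 passed (*E2f8* and *Ccnd3*). At an unadjusted p under 0.05 there were 9 on the higher and 0 on the lower side. The share of all rows at that threshold was not computed, so this count has no background to be read against. *E2f8* was the clearest: LPS raised it to 5.65 to 7.23 FPKM without IL-4 and to 17.9, 22.9 and 23.9 FPKM after IL-4, from similar levels of 1.86, 2.55 and 2.54 FPKM and 2.88, 1.89 and 2.20 FPKM (interaction 1.64 ± 0.21, adjusted p = 0.0011). The IL-4+LPS mean was 3.47-fold that of LPS, and the interaction was 1.39 to 2.08 with adjusted p at most 0.0051 in every alternative fit. *Ccnd3*, which LPS changed by -0.53 without IL-4 (not called under other scalings) and raised after it, had an interaction of 1.10 ± 0.19 (adjusted p = 0.0048). *Tpx2*, at 5.70, 5.57 and 6.57 FPKM in control, 4.68, 5.05 and 5.42 FPKM in IL-4, 4.16, 5.19 and 5.19 FPKM in LPS and 7.38, 6.21 and 5.84 FPKM in IL-4+LPS, was marginal (interaction 0.55 ± 0.15, adjusted p = 0.047) and lost its call in all 12 fits that left out 1 sample. *Ccnd2* and *Mki67* had larger interactions that missed the threshold (1.68 ± 0.47 and 1.38 ± 0.41, adjusted p = 0.051 and 0.062), and both passed with replicates 2 and 3 only, where 13 members passed in all but the share of all rows that passed also grew, to 13.2% higher and 12.4% lower. Mitotic members that fell with IL-4 had interactions that did not pass in this fit, for example *Ube2c* at -0.08, *Ccna2* at 0.17 and *Mki67* at 1.38. The median interaction was 0.21 over the mitotic and 0.22 over the S-phase members, against 0.04 over all rows.

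Other genes of the pathway were counted from separate lists. Of 37 further replication genes that were expressed, 32 fell in LPS (median -1.03), and in IL-4 6 fell and 4 rose (median -0.17). Of 37 further mitotic genes 29 fell and 1 rose in LPS (median -0.76), and 27 fell in IL-4 (median -0.54). In IL-4+LPS against LPS, 14 of these mitotic genes fell and 2 rose (median -0.39), and 2 of the replication genes rose (median 0.05). Of all rows 57.7% fell and 16.9% rose in LPS, and 21.0% fell and 16.0% rose in IL-4. In IL-4+LPS against LPS the shares were 15.8% and 15.0%. The IL-4 counts of the replication genes were thus no larger than the shares of all rows. *Gmnn*, geminin, the inhibitor of *Cdt1*, measured 13.5, 24.8 and 23.4 FPKM in control and 2.40, 1.69 and 1.73 FPKM in LPS (log2 fold change -2.84 ± 0.23, adjusted p = 1.2e-06). *Cdc25b*, a phosphatase that activates CDK1, was at 9.14, 10.4 and 10.2 FPKM in control, 6.01, 4.47 and 4.77 FPKM in IL-4 and 1.14, 1.49 and 1.26 FPKM in LPS, with no overlap between the 3 groups (log2 fold changes -0.85 ± 0.14 and -2.25 ± 0.14). Of 21 further G1 regulators 11 fell and 5 rose in LPS, and 3 fell and 1 rose in IL-4, shares of falls no larger than the 57.7% and 21.0% of all rows. *Cdk6*, the kinase partner of the D-type cyclins, rose with LPS from 4.18, 4.20 and 4.74 FPKM to 15.5, 21.0 and 19.6 FPKM (log2 fold change 1.87 ± 0.15, adjusted p = 1.1e-06). *Myc*, a growth regulator that drives entry into the cycle, went up with IL-4 and down with LPS, at 6.75, 9.21 and 10.4 FPKM in control, 20.2, 26.3 and 25.1 FPKM in IL-4 and 2.20, 2.43 and 2.83 FPKM in LPS. No 2 of these *Myc* groups overlapped (log2 fold changes 1.35 ± 0.17 and -1.48 ± 0.17). *Cdkn1c*, which encodes the CDK inhibitor p57, fell with IL-4 from 6.21, 9.04 and 7.70 FPKM to 1.89, 1.96 and 1.85 FPKM (log2 fold change -1.56 ± 0.12, adjusted p = 6.8e-06).

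Several values carry limits of annotation. The exons of 18 members overlap those of another gene, and since the library kit does not mark strand, reads of such pairs cannot be told apart. *Gins2* shares 70.3% of its 50-base words with *Gse1*, *Mcm7* 34.2% with other genes and *Kif20a* 31.2% with *Cdc23*, so their levels are uncertain. The fold changes of members near or under 1 FPKM, such as *Cdc6*, *Cenpf* and *Mybl2*, are compressed by the pseudocount of 1.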

How the data were processed

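Per the labels and the study's methods, the authors made poly-A selected TruSeq libraries, mapped the reads to mm10 with TopHat2 2.0.7 and computed FPKM per gene with Cufflinks 2.0.2 (names and versions from the submitters' processing notes, with the annotation not given in the sources used here). Each deposited table held the FPKM values of 1 sample, and replicates were not pooled. Symbol, locus and start site together matched the rows of the 12 tables (23847 rows).

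Rows with at least 1 FPKM in at least 1 sample (11191) were tested on log2(FPKM + 1) with limma 3.58.1 in R 4.3.3, in a model of 4 group means over all 12 samples with an intensity trend, two-sided, with Benjamini-Hochberg adjustment within each comparison and a threshold of 0.05 with no minimum fold. Fold changes on this scale understate changes of low genes. The script was checked on simulated data. The interaction was (IL-4+LPS minus IL-4) minus (LPS minus control). Alternatives were a pseudocount of 0.1, other filters, median scaling, quantile normalization, a replicate block, only the compared groups, replicates 2 and 3 only, and leaving out each sample.

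Library sizes were estimated from the value of 1 fragment in genes with a single transcript of at least 2000 bases, where 76.3 to 81.6% of low values lay within 0.15 of a whole multiple. FPKM totals were 457583 to 495025 per sample. Deeper libraries (up to 39600000 fragments) fix low genes more firmly than replicate 1 does. Tables were read with pandas 2.3.3 and figures drawn with matplotlib 3.10.9. The study's legends describe individual animals from separate experiments without saying which samples shared an experiment, so p-values measure the spread between these samples.

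The members and gene lists were chosen with earlier results of these data known. By a stated rule, values per sample were given for the largest called change of each role in each direction and for all D-type cyclins and CDK inhibitors, and further members were described after their values were seen. Of the context lists at most 3 genes each were named, those with the largest called change that had the same sign in all replicates. *Ly6g* was the only marker not found.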

Additional observations from a re-analysis of the deposited data

Results flagged for a closer look

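The LPS change of 3 of 50 members passed the test of a difference between cells with and without IL-4 pretreatment (limma interaction term, adjusted over 11191 rows). Over all rows 4.58% passed on the higher and 4.63% on the lower side, so the count does not set the members apart. For *E2f8* the difference was 1.64 on the log2 scale (adjusted p = 0.0011), with LPS changes of 1.12 without and 2.76 after IL-4, and all 3 IL-4+LPS samples were above all 3 LPS samples. For *Ccnd3* it was 1.10 (adjusted p = 0.0048), with LPS changes of -0.53 and 0.58, of which the first was not called under median scaling or quantile normalization. For *Tpx2* it was 0.55 (adjusted p = 0.047), with LPS changes of -0.25 and 0.30, and the call was lost in every fit that left out 1 sample.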

How the results depend on the processing

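Quantile normalization left 26 of 42 falls in LPS minus control and 22 of 39 in IL-4+LPS minus IL-4, and gave 2 rises in IL-4 minus control. It reversed *Tyms* in 3 comparisons (0.31 in LPS minus control, 0.45 in IL-4+LPS minus IL-4, 0.49 in IL-4+LPS minus control), *Ccnb1* in LPS minus control (0.093), and *Ccnb2* (0.043), *Aurka* (0.051) and *Ube2c* (0.12) in IL-4+LPS minus IL-4, and *Ube2c* there also reversed under median scaling (0.027). With replicates 2 and 3 only, IL-4 minus control had 36 falls and 2 rises, IL-4+LPS minus LPS 19 falls, the interaction 13 rises, and *E2f8* in IL-4 minus control was -0.22. The causes were not tested.

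Replicate numbers were shared by the groups, but deviations of same-numbered samples correlated over 0.1 in only 11 of 18 pairs (0.0024 to 0.386), and 9 of 12 samples correlated best with their own number, so the numbers were not taken as pairing. The replicate block gave 3 rises in IL-4 minus control (1 without it), 8 in the interaction (3), and 42 and 23 falls in LPS and IL-4 minus control. Under the block 21.5% of all rows rose in IL-4 minus control, and 10.2% were higher and 9.78% lower in the interaction.

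Leaving out 1 sample gave 3 to 4 rises and 39 to 42 falls in LPS minus control, 1 to 2 and 13 to 29 in IL-4 minus control, 6 to 7 and 31 to 38 in IL-4+LPS minus IL-4, 4 to 6 and 6 to 13 in IL-4+LPS minus LPS, 5 and 40 to 42 in IL-4+LPS minus control, and 2 to 4 rises in the interaction. Other counts stayed within 1.5 times. Low members (*Cdc6*, *Ccne2*, *Mybl2*, *Cenpf*) are limited by depth, most in replicate 1.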

Other observations

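Antiproliferative genes of the p53 pathway and regulators of macrophage self-renewal were also measured. Of 12 listed p53 pathway and antiproliferative genes 6 fell and 3 rose in LPS, and 2 fell and 3 rose in IL-4, where 57.7% of all rows fell and 16.9% rose in LPS and 21.0% fell and 16.0% rose in IL-4. *Sesn1*, a stress-responsive inhibitor of mTORC1 signalling, measured 114, 109.7 and 117 FPKM in control, 56.8, 57.2 and 57.6 FPKM in IL-4 and 9.87, 1.93 and 2.35 FPKM in LPS (log2 fold change in LPS -4.59 ± 0.52, adjusted p = 1.6e-05). The LPS samples were all far below control, with replicate 1 the highest of them. *Trp53inp1*, a p53-induced nuclear protein, went from 11.8, 7.03 and 8.68 FPKM to 0.647, 0.141 and 0.224 FPKM (log2 fold change -2.92 ± 0.27), so *Sesn1* and *Trp53inp1* fell where *Cdkn1a* rose. *Gadd45b*, a stress sensor, rose with IL-4 from 15.4, 22.7 and 23.7 FPKM to 45.5, 66.1 and 63.4 FPKM and to 215, 286 and 272 FPKM with LPS (log2 fold changes 1.46 ± 0.20 and 3.59 ± 0.20), with no overlap between the groups.

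Of 6 self-renewal regulators, 5 fell in LPS, while 2 fell and 3 rose in IL-4, to be read against the same shares of all rows. *Maf*, a transcription factor of the list, fell with IL-4, from 64.7, 63.6 and 62.8 FPKM to 11.9, 11.2 and 13.1 FPKM (log2 fold change -2.31 ± 0.08, adjusted p = 2.7e-08). *Klf4*, a known IL-4 target, rose from 1.29, 1.36 and 1.45 FPKM to 11.2, 12.6 and 13.5 FPKM with IL-4 and was at 1.39, 1.55 and 1.87 FPKM in IL-4+LPS (interaction -2.07 ± 0.13, adjusted p = 1.8e-05).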
